A study of Mus musculus with 4 samples.

Results

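The genes described here build and run the lysosome, the acid compartment in which cells break down proteins, glycans and lipids. They are 36 genes chosen by function, with earlier results of these data already known. They comprise proteases (cathepsins and related enzymes), glycosidases, enzymes, carriers and cofactors of lipid breakdown, membrane proteins, sorting receptors and subunits of the proton pump. The brightest probe set by mean signal stood for each gene. A probe set tied to that gene alone was found for 35 of the 36, all but Cd63, and all 35 passed the filter on dim signals, among 13730 genes tested of 18194 with such a probe set.

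The samples were mouse embryonic stem (ES) cell cultures, pluripotent cells kept on gelatin with no feeder layer, in medium with serum and leukaemia inhibitory factor, as the labels state. BAF250 is the ARID-domain subunit of SWI/SNF, a complex that remodels chromatin. Total RNA was labelled with biotin and hybridised to 1 Affymetrix array per culture, 4 arrays in all. The groups were BAF250 knock-out homozygous cells (2 arrays, ko1 and ko2), BAF250 knock-out heterozygous cells (1 array, "het") and wild type cells (1 array). The labels give no strain, passage, allele design or clone number, and do not say whether ko1 and ko2 were derived independently. The p-values therefore measure only the spread between these arrays. Where 1 mean was fitted per genotype, the spread between ko1 and ko2 stood in for that of the 2 genotypes with a single array. It was combined with a trend of spread over all genes, and 1 of 9.87 total degrees of freedom was residual.

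Lysosomal hydrolases are made in the endoplasmic reticulum, tagged with mannose 6-phosphate in the Golgi and carried to endosomes by mannose 6-phosphate receptors, while a vacuolar ATPase pumps protons into the compartment so that the enzymes can work. Many of their genes are driven by TFEB and its relatives, which bind an E-box motif called CLEAR. Endoderm epithelia, above all the visceral endoderm of the yolk sac, take up maternal protein by endocytosis and degrade it in large lysosomes, so they are rich in cathepsins.

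All signals below were divided by a scale factor per array (0.941 for ko1, 0.872 for ko2, 1.39 for wild type and 0.877 for heterozygous), since the deposited signals differed in overall level. Differences are log2 differences of those scaled signals after adding 0.675, with the standard error (SE) of a limma fit across all 13730 genes, and a gene passed at a Benjamini-Hochberg adjusted p under 0.05. The median gene stood at -0.18 for homozygous minus wild type, at -0.08 for homozygous minus heterozygous and at -0.07 for heterozygous minus wild type. From here on, signals written as a pair against a pair are ko1 and ko2 against wild type and heterozygous, in that order. Background, taken per array as the highest of 27 probe sets for bacterial transcripts, lay at 5.9 and 4.38 against 5.45 and 7.9. The brighter probe set of Arid1a, one of the mouse genes called BAF250, read 7.47 and 4.09 against 78.4 and 57.5. Its other probe set read 18.4 and 1.21 against 30.9 and 27.5, so there ko1 stayed above background. The ratio of the 3' to the 5' actin control probe set, a sign of RNA quality, was 5.01 and 2.61 against 1.3 and 2.86. It was thus highest in ko1, and its part in the results below was not tested.

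Among the lysosomal genes, the calls fell mainly on the proteases: 2 of 10 rose in each single comparison, and no glycosidase, membrane protein, sorting receptor or pump subunit passed in any. Against wild type, Ctsh and Lgmn rose. Against heterozygous, Ctsh and Ctsl rose. No member fell in either comparison. Counted over all 13730 genes, 0.189% were called higher against wild type and 0.00728% lower, and 0.204% were called higher against heterozygous and 0.00728% lower. The members gave 2 rises of 35 in each comparison, and at an unadjusted p under 0.05 there were 8 higher and 1 lower against wild type and 11 higher and 1 lower against heterozygous. Over all 13730 genes the same unadjusted threshold gave 504 higher and 314 lower against wild type and 628 and 261 against heterozygous. With signals left as deposited, 55 genes were called higher and 85 lower against wild type, where 26 and 1 were called after scaling. These comparisons share the homozygous arrays, so they are not independent of one another.

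A fit of 2 groups set ko1 and ko2 on one side and the 2 remaining arrays on the other, with 2 residual of 22.6 total degrees of freedom. It treated wild type and heterozygous as replicates of 1 group, so any difference between them counted as spread. That fit added Ctsb, Ctsa and Psap to Ctsh, Ctsl and Lgmn. There 6 of the 35 members rose and 0 fell, beside 0.925% of all genes called higher and 0.335% called lower. Of the 6, 5 are proteases. In 19 members both homozygous arrays lay above both other arrays and in 4 below, whereas over all tested genes the shares were 18.1% above and 21.5% below. Of those 4, Lamp2, Gusb and Manba were below background on all 4 arrays, so their order has no meaning, and Scarb2 is the other. Of the 19, Npc1 was at or below background on 3 arrays, all but ko2, so its order says little. Ppt1 was dim too, with ko2 just above background and wild type and heterozygous below it, and Neu1 was below background in heterozygous. The shares over all genes include dim genes too. The median member difference was 0.48 against wild type and 0.50 against heterozygous, where the median of all genes tested was -0.18 and -0.08. In bulk RNA, a larger share of cells that express a gene and more transcript per cell cannot be told apart.

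**Figure D1:**
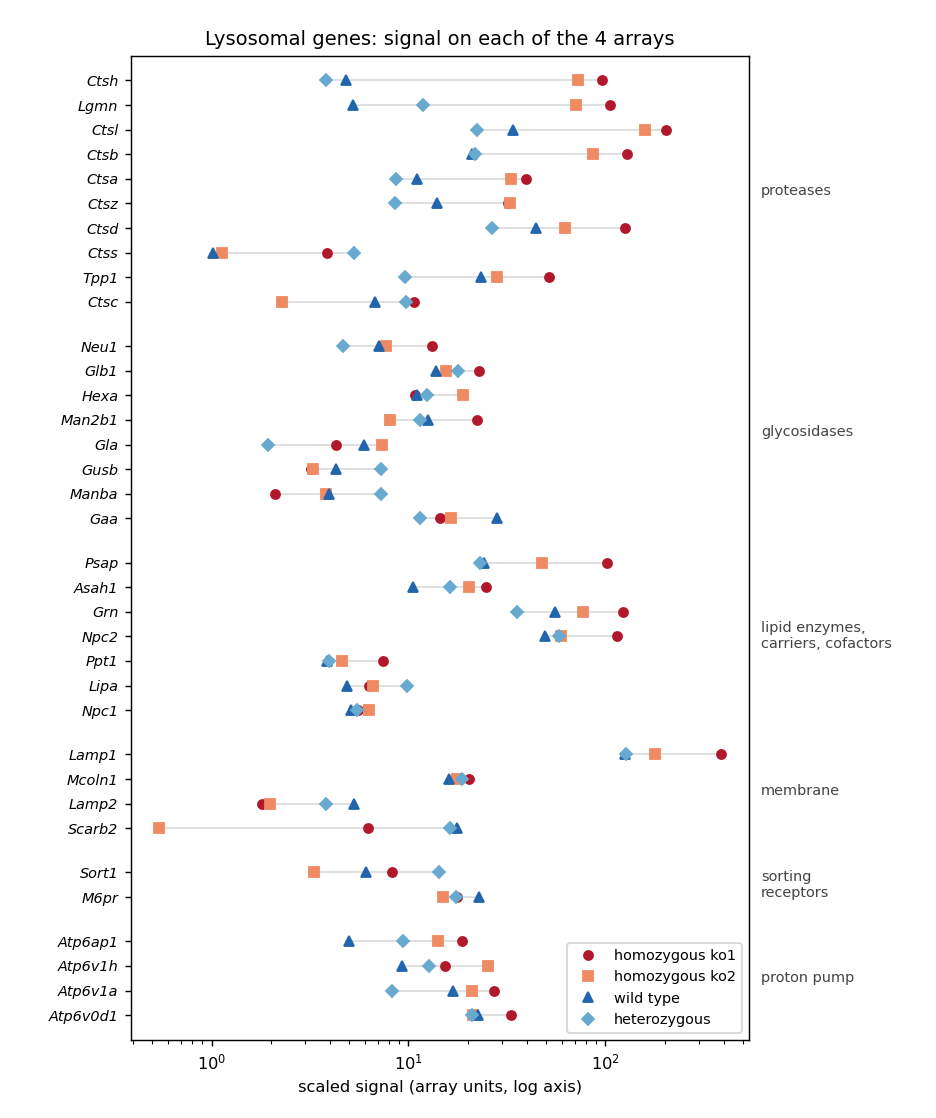
Scaled signal (log axis) of the 35 measured lysosomal genes on each of the 4 arrays, ordered by role and by difference from wild type. The homozygous arrays (circle ko1, square ko2) lie apart from wild type and heterozygous for Ctsh and Lgmn and overlap them for most glycosidases.

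Ctsh, cathepsin H, a cysteine protease that trims proteins from the amino end, rose in both comparisons. It read 95.8 and 72.6 against 4.79 and 3.81. Both of the latter lay below background, so the homozygous lines were at least 15.3-fold above wild type (fitted difference 3.94 ± 0.52, limma adjusted p = 0.0176) and at least 10.6-fold above heterozygous (adjusted p = 0.0109). The second Ctsh probe set went the same way, with 50.9 and 56.9 against 3.27 and 2.27.

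Lgmn encodes legumain, the asparaginyl endopeptidase that cleaves several cathepsins into their mature chains. Its only probe set read 105 and 70.7 against 5.24 and 11.9. The wild type value was below background, and the homozygous lines were at least 14.7-fold higher (fitted difference 3.87 ± 0.50, limma adjusted p = 0.0152). Against heterozygous the difference was 2.78 ± 0.50 and did not pass (adjusted p = 0.0746). It did pass with a pseudocount at the 40th percentile (limma adjusted p = 0.0494), with signals as deposited (0.00295), with trimmed mean scaling (0.0499) and with quantile normalization (0.0448). Heterozygous was above its background and wild type was not, and the fit of heterozygous minus wild type did not call Lgmn (adjusted p = 1).

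Ctsl and Ctsb encode the abundant cysteine endopeptidases cathepsins L and B. Ctsl read 203 and 158 against 33.8 and 22.3. Both homozygous arrays lay above the others, by 7.82-fold from heterozygous (2.97 ± 0.45, limma adjusted p = 0.033) and by 5.21-fold from wild type (2.38 ± 0.45, adjusted p = 0.0908). The first did not pass with the pseudocount divided by 16 (limma adjusted p = 0.0719), with no filter (0.0546) or with probe sets averaged (0.634), and the second passed with quantile normalization (0.0386). Ctsb read 129 and 86 against 21 and 21.7. Its difference was 2.29 ± 0.47 from wild type and 2.24 ± 0.47 from heterozygous, neither past the test alone (adjusted p = 0.137 and 0.148), but it passed in the fit of 2 groups (4.81-fold, 2.27 ± 0.35, adjusted p = 0.000448). A further Ctsb probe set above background on every array read 39.9 and 28.3 against 11.1 and 13.5, in the same direction.

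Ctsa encodes cathepsin A, a serine carboxypeptidase that also protects neuraminidase and beta-galactosidase in a complex. It read 39.4 and 33.2 against 11.1 and 8.68, and passed only in the fit of 2 groups (3.51-fold, 1.81 ± 0.43, limma adjusted p = 0.0301). Its second probe set, above background on all 4 arrays, went the opposite way, with 11.5 and 11.1 against 21.9 and 20.3. The rise of Ctsa therefore rests on 1 of its 2 probe sets. That one was the brighter by mean signal only through the homozygous arrays, since in wild type and heterozygous it was the dimmer. The partners of that complex, Neu1 and Glb1, did not pass and are given below.

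The other proteases did not pass any of these tests. Ctsd, the aspartic protease cathepsin D, read 126 and 62 against 44.3 and 26.5. Ctsz, the carboxypeptidase cathepsin Z, read 31.9 and 32.9 against 13.9 and 8.54, and Tpp1, a tripeptidyl peptidase, 51.7 and 28.2 against 23.4 and 9.56. In all of these both homozygous arrays were above both others, as in 8 of the 10 proteases and 18.1% of all tested genes. All of the Ctsz probe sets shared that order, the others reading 29.3 and 28.2 against 10.5 and 11.3, and 9.99 and 12.1 against 2.51 and 1.63.

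Ctsc and Ctss stood apart from the other proteases. Ctsc, the dipeptidyl peptidase cathepsin C, read 10.7 and 2.29 against 6.74 and 9.66, with ko1 above and ko2 below the others. Ctss, the cathepsin of antigen-presenting cells, was below background on every array. The median difference of the 10 proteases was 1.42 from wild type and 1.95 from heterozygous.

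**Figure D2:**
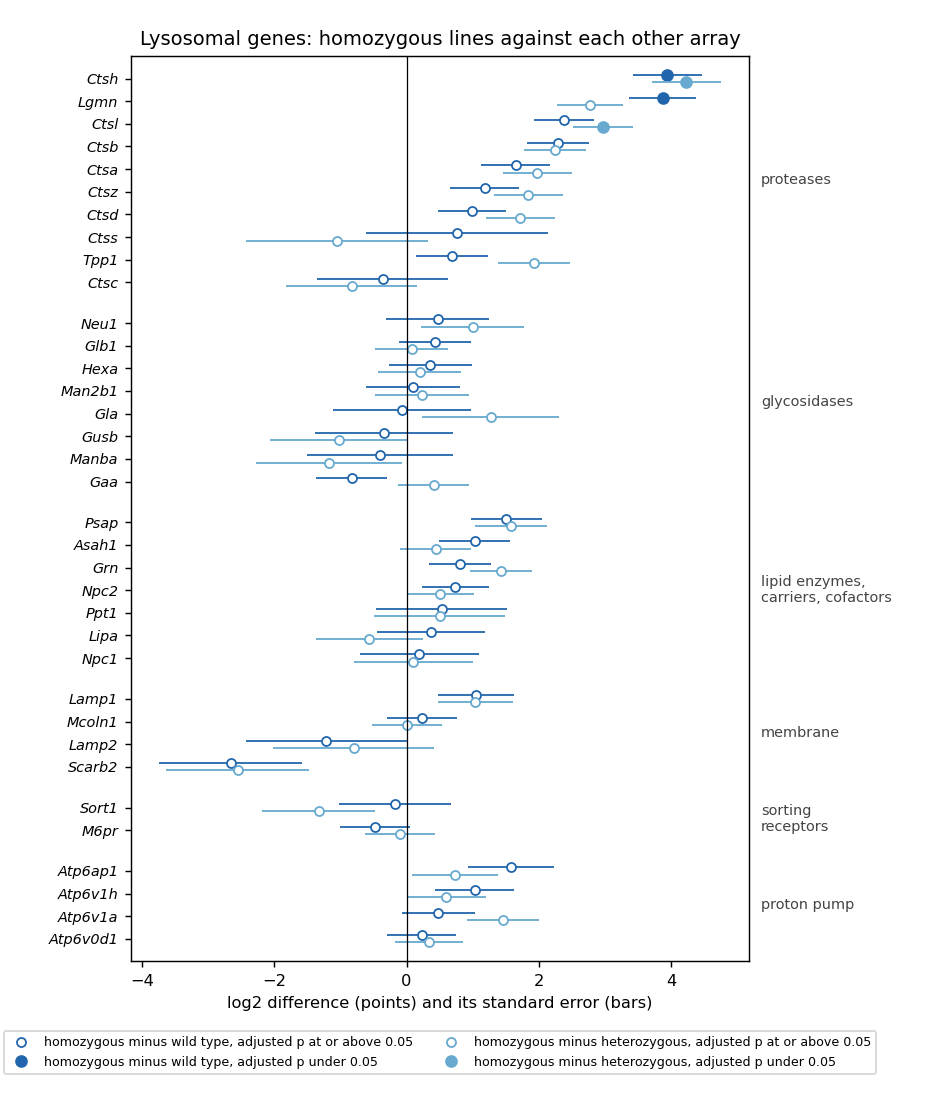
Log2 difference of the homozygous lines from wild type (dark) and from heterozygous (light) for each lysosomal gene, with bars of 1 SE; filled points passed the limma test at an adjusted p under 0.05. The filled points are Ctsh in both comparisons, Lgmn against wild type and Ctsl against heterozygous.

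Glycosidases strip sugars from glycoproteins, glycolipids and glycogen, and none of the 8 passed in any comparison. Their median difference was 0.01 from wild type and 0.21 from heterozygous, with single genes between -0.83 and 0.47 against wild type. Both medians include Gusb (-0.34 from wild type) and Manba (-0.40), below background on all 4 arrays, whose differences are not measured sizes. Glb1, beta-galactosidase, read 22.7 and 15.6 against 13.8 and 17.8. Hexa, the alpha chain of beta-hexosaminidase, read 10.8 and 18.9 against 11 and 12.4, so its arrays overlapped between the groups as those of Glb1 did. Neu1, the sialidase, read 13.1 and 7.68 against 7.08 and 4.67, just without overlap, while another of its probe sets ran the other way (1.07 and 0.915 against 5.94 and 4.2).

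Man2b1, an alpha-mannosidase, differed more between the homozygous lines (22.4 and 8.1) than between groups, the others reading 12.6 and 11.5. Gaa, which degrades glycogen, read 14.5 and 16.5 against 28 and 11.5. Gla, alpha-galactosidase A, was dim, with 4.28 and 7.37 against 5.96 and 1.94. Gusb, beta-glucuronidase, and Manba, beta-mannosidase, were below background on all 4 arrays on their brightest probe sets, so no fold is given for them. Of the 8 glycosidases, 1 had both homozygous arrays above both others, beside 18.1% of all tested genes. It was Neu1, whose heterozygous value was below background.

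Among the genes of lipid breakdown, Psap rose in the fit of 2 groups. It encodes prosaposin, the precursor of the saposins that present sphingolipids to their hydrolases. It read 102 and 47.8 against 24.1 and 23 (2.91-fold, 1.54 ± 0.38, limma adjusted p = 0.0477), and its second probe set read 47.9 and 37.3 against 17.4 and 16.2. Against wild type alone the difference was 1.51 ± 0.54 (adjusted p = 0.694). Grn encodes progranulin, a lysosomal glycoprotein that binds prosaposin. It did not pass, and read 123 and 76.9 against 55.3 and 35.7, with both homozygous arrays above both others on each of its 3 probe sets.

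The remaining genes of that group did not pass. Asah1, acid ceramidase, read 24.8 and 20.2 against 10.6 and 16.3. Npc2, the soluble cholesterol carrier, read 115 and 59.4 against 49.2 and 58, with ko2 close to heterozygous, and a second probe set read 57.6 and 62 against 71.1 and 45.4, overlapping. Its membrane partner Npc1 read 5.52 and 6.31 against 5.09 and 5.45, close to background throughout. Lipa, the acid lipase for cholesteryl esters, read 6.33 and 6.6 against 4.85 and 9.84, and Ppt1, a thioesterase, 7.45 and 4.61 against 3.87 and 3.95. The median difference of the 7 genes was 0.74 from wild type and 0.50 from heterozygous.

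The membrane proteins split. Lamp1, a main glycoprotein of the lysosomal membrane, read 385 and 179 against 126 and 127, a difference of 1.05 ± 0.57 from wild type that did not pass (limma adjusted p = 0.868). Scarb2, the receptor that carries glucocerebrosidase to lysosomes, showed the lowest difference of all members, at 6.26 and 0.542 against 17.6 and 16.3. The fitted difference of -2.66 ± 1.08 did not pass (adjusted p = 0.77), ko1 was just above background and ko2 below it, and the other Scarb2 probe set was below background on all 4 arrays. Lamp2 was below background on all 4 arrays on its brightest probe set, while 2 other probe sets reached above it in ko2 alone (6.55 and 4.87). Mcoln1, a calcium channel of the lysosome, read 20.3 and 17.6 against 16 and 18.8.

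The sorting receptors did not pass, and in neither did both homozygous arrays lie above the others. M6pr, the cation-dependent mannose 6-phosphate receptor, read 17.6 and 14.9 against 22.9 and 17.5. The difference was -0.48 ± 0.53 from wild type. Sort1, sortilin, which carries prosaposin and other cargo, read 8.29 and 3.32 against 6.07 and 14.3, with the arrays of the groups overlapping. So the members that deliver hydrolases did not share the order seen in the proteases.

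None of the 4 proton pump members passed. In 3 both homozygous arrays lay above both others, beside 18.1% of all tested genes. Atp6ap1, an accessory subunit, read 18.6 and 14.1 against 4.98 and 9.41, with wild type below background. That put the homozygous lines at least 2.97-fold above wild type (1.58 ± 0.65, limma adjusted p = 0.79). Atp6v1h read 15.3 and 25.2 against 9.29 and 12.7, and Atp6v1a, the catalytic subunit, 27.3 and 21 against 16.9 and 8.26. The second Atp6v1a probe set, above background on all 4 arrays, overlapped between the groups, with 13.1 and 16.6 against 15 and 8.98. Atp6v0d1 of the membrane sector read 33.1 and 21.3 against 22.6 and 20.9, with ko2 between the others. The median of the 4 was 0.75 from wild type and 0.67 from heterozygous.

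**Figure D3:**
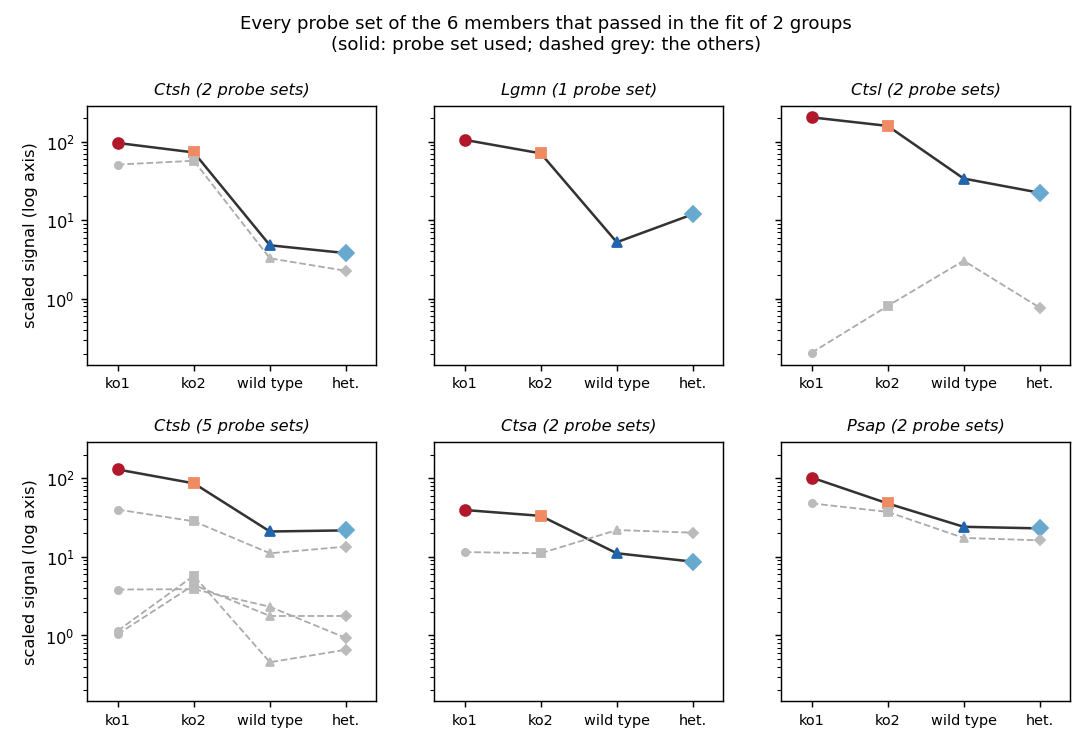
Scaled signal (log axis) of every probe set of the 6 genes that passed in the fit of 2 groups, across ko1, ko2, wild type and heterozygous (het.). The probe set used is the solid line; the second ones of Ctsh, Ctsb and Psap by mean signal follow it, while the second one of Ctsa runs the other way.

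Several probe sets were available for 24 of the 35 genes. Apart from the ones used, 28 probe sets of members were above background on at least 1 array, and 20 of them had a difference from wild type of the same sign as the probe set used, against 8 of the opposite sign. The homozygous lines were not alike in level. In 25 of the 35 members ko1 read above ko2, including 9 of the 10 proteases, beside 53.5% of all tested genes. The median member difference from wild type was 0.80 in ko1 and 0.28 in ko2, and for the proteases 1.63 and 1.37. The actin ratio given above was also higher in ko1 than in ko2.

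The calls depend on how the spread is estimated and on whether the probe sets of a gene are averaged. Without the intensity trend in limma none of the 35 members passed in any comparison, with an adjusted p of 0.706 for Ctsh and Lgmn against wild type. With the probe sets of a gene averaged, Ctsh (3.87, limma adjusted p = 0.0725) and Lgmn (adjusted p = 0.0711) did not pass against wild type. Lgmn has 1 probe set, so its difference of 3.87 was unchanged and only its adjusted p moved. The difference of Ctsh moved little, from 3.94. In the fit of 2 groups Ctsh alone passed with probe sets averaged. Leaving ko1 out of the fit of 2 groups left Ctsh and Ctsl. Leaving out ko2 lost Ctsa and added Ctsd and Lamp1, and leaving out either wild type or heterozygous lost Ctsa and Psap.

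Between heterozygous and wild type no member was called by limma. None of the 35 passed (smallest adjusted p = 1), and 0 reached an unadjusted p under 0.05. Over all 13730 genes 0% were called in either direction, with 143 higher and 225 lower at an unadjusted p under 0.05. The median member stood at 0.01. Both sides had 1 array, so these values have no replicate of their own.

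Further lysosomal genes outside the members gave no call in any of the comparisons. Over all genes 0.189% were called higher against wild type, 0.204% against heterozygous and 0.925% in the fit of 2 groups. No call in lists this short is near those shares, which also holds for the TFEB family and autophagy genes below. Of the other hydrolases, 18 of 29 listed were tested, with a median of -0.05 from wild type and 0.78 from heterozygous. Pla2g15, a lysosomal phospholipase, read 12.2 and 5.59 against 0.674 and 1.6, and Ctsf, cathepsin F, 7.77 and 4.61 against 0.879 and 0.271. Pla2g15 and Ctsf were below background in wild type and heterozygous, and passed the filter on dim signals only through the homozygous arrays. Idua, which degrades glycosaminoglycans, read 0.241 and 10.2 against 11.1 and 5.88, so the homozygous lines disagreed, and Naglu, of the same breakdown route, read 9.64 and 6.78 against 3.49 and 5.86. The other pump subunits (12 of 13 tested) all stood above the median gene against wild type, with a median of 0.45. Tcirg1, a membrane-sector subunit, read 10.3 and 12.6 against 1.05 and 1.24. Like Pla2g15 and Ctsf, it was below background in wild type and heterozygous and passed the filter only through the homozygous arrays. Atp6v0b read 44.3 and 27.2 against 14.4 and 11.2. Atp6v0a2 read 9.86 and 9.89 against 3.35 and 7.2, while Atp6v0a1 overlapped (17 and 13 against 9.3 and 13.5).

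Among other membrane proteins (16 of 19 tested, median 0.17 from wild type) Lmbrd1, the lysosomal cobalamin exporter, read 21.4 and 10.2 against 1.03 and 1.43 (limma adjusted p = 0.587). Lmbrd1 was below background in wild type and heterozygous, and passed the filter on dim signals only through the homozygous arrays. Mfsd8, above background in wild type alone, read 1.85 and 2.83 against 11.4 and 3.13, Cd68 7.36 and 16.8 against 4.75 and 6.08, and the chloride exchanger Clcn7 6.67 and 6.41 against 14.7 and 10.3. The other sorting genes (15 of 16 tested) had a median of 0.00 from wild type and 0.87 from heterozygous. Nagpa and Gnptab, enzymes that make the mannose 6-phosphate tag, read 8.74 and 10.9 against 2.95 and 7.75, and 2.09 and 5.42 against 10.9 and 6.29. They thus stood on opposite sides of wild type. The adaptor Gga1, above background in ko2 alone, read 1.95 and 5.27 against 5.33 and 1.15, and the sorting nexin Snx2 16.7 and 10.3 against 8.67 and 6.77.

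The transcription factors of the TFEB family and the nutrient-sensing genes (15 of 16 tested) had a median of -0.40 from wild type and 0.21 from heterozygous, with 0 called. Tfe3, a close relative of Tfeb, read 14.4 and 23.5 against 49.4 and 47.2 (-1.39 ± 0.50, limma adjusted p = 0.695), both homozygous arrays below both others. Tfeb itself was dim and uneven, at 2.1 and 13.3 against 2.05 and 5.31. Rragd, above background in wild type alone, read 0.946 and 0.375 against 7.12 and 0.454, and Flcn, a regulator of these factors, 9.03 and 4.89 against 17.5 and 0.72. The autophagy genes (all 17 tested, median -0.06 from wild type) had no call either. Map1lc3a and Gabarapl1, which coat autophagosomes, read 95.3 and 45.1 against 21.5 and 28.6, and 28.5 and 31 against 13 and 11.2. Rubcn, at 0.823 and 0.432 against 3.56 and 8.79, was above background in heterozygous alone. Atg12 read 1.11 and 5.16 against 9.81 and 1.43, above background in ko2 and wild type.

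**Figure D4:**
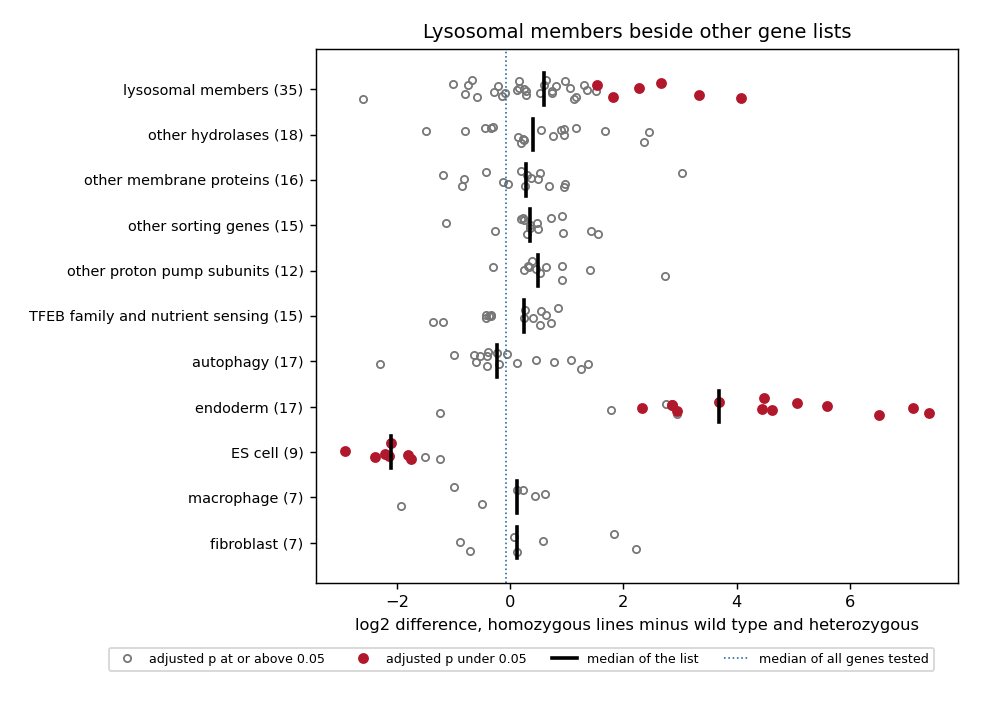
Log2 difference of the homozygous lines from wild type and heterozygous together, 1 point per gene, for the lysosomal members and other gene lists (number tested in brackets); bars are list medians and the dotted line is the median of all genes tested. Filled points passed the limma test at an adjusted p under 0.05 and, outside the members, occur in the endoderm and ES cell lists.

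Markers of other cell types were measured beside the members. Endoderm markers moved with the proteases: 6 of 17 tested rose against wild type, 7 against heterozygous and 13 in the fit of 2 groups, and 0 fell. Over all genes 0.189%, 0.204% and 0.925% were called higher in these comparisons, in that order. The summed scaled signal of the 18 markers with a probe set was 7800 and 4650 against 139 and 154, and Afp was below background on every array. In 16 of the 17 tested both homozygous arrays lay above both others, beside 18.1% of all tested genes. The exception was Amn, above background in ko2 alone, at 0.405 and 6.03 against 5.11 and 6.33. Some of the 16, such as Ttr, Cubn and Pdgfra, had deposited signals below the filter's 2.55 in both wild type and heterozygous. They passed that filter only through the homozygous arrays, so their order was largely set by it. The leading endoderm markers were Col4a2, Col4a1, Lama1 and Sparc, components of basement membrane and matrix, with Sparc at 4120 and 2650 against 65.3 and 69.7. ES cell markers went the other way, with 7 of 9 lower in the fit of 2 groups (0.335% of all genes) and 0 in the single comparisons (0.00728% in each). Their summed signals were 120 and 183 against 768 and 508. Fgf4 read 6.08 and 4.89 against 54.5 and 37.7, Pou5f1 12.4 and 48.3 against 153 and 113, Utf1 35.7 and 43.6 against 223 and 132, and Sox2 7.26 and 8.96 against 45.1 and 31.6. The part of these cell states in the protease values was not tested.

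Macrophages and fibroblasts, which also carry many cathepsins, were represented by lists with 0 of 7 genes called each. Over all genes at most 0.925% were called higher and 0.335% lower in any comparison. The 0 of 7 is thus near the share over all genes and says little of these cell types. The summed macrophage signal was 53.3 and 56.1 against 42.6 and 55, so heterozygous lay between the homozygous lines. Itgam and Fcgr3 were below background on every array, and Ctss, a member typical of macrophages, was too. Laptm5 read 1.37 and 8.08 against 14.7 and 16, Tyrobp 6.42 and 4.49 against 1.19 and 10.1, Csf1r 16.2 and 11.7 against 7.31 and 10.4, and Aif1 0.715 and 4.53 against 5.4 and 0.326. The fibroblast sum was 44 and 70.8 against 33.6 and 33.9, with Pdgfrb below background throughout. Col1a2 read 17.6 and 29.3 against 5.64 and 3.25, and narrowly missed in the fit of 2 groups (limma adjusted p = 0.0507). Dcn read 6.75 and 3.24 against 0.213 and 1.91, Lum 1.13 and 2.94 against 5.56 and 2.84, and Col3a1 0.425 and 5.09 against 4.69 and 0.409.

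Promoter windows were examined because lysosomal genes share the CLEAR element, whose centre is the E-box CACGTG. RefSeq windows of assembly GRCm38.p6, from 250 bases before to 50 after an annotated start, were on hand for 29 of the 36 members. Asah1, Atp6v1h, Ctsb, Ctsh, M6pr, Npc1 and Sort1 had none here. CACGTG, which reads the same on both strands, was present in the windows of 11 of the 29 genes (37.9%), and in those of 8.09% of all 27025 genes. GTCACGTG, searched with its reverse complement CACGTGAC and containing that E-box, was present in 8 of the 29 (27.6%) against 2.55% of all genes. The full palindrome GTCACGTGAC was found in 0 of the 29 and in 0.37% of all genes. The members were grouped for their lysosomal function, for which this motif is known, so the shares are a description.

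Of the 6 genes that rose in the fit of 2 groups, Lgmn, Ctsl and Ctsa had an E-box in a window, Psap had none, and Ctsb and Ctsh had no window. The windows of these 3 are shown whole, 5′ to 3′ along the gene, with each CACGTG in capitals. For Lgmn and Ctsa, which have 2 annotated starts each, it is the window that holds the motif.
Lgmn, chr12:102439043-102439342, minus strand: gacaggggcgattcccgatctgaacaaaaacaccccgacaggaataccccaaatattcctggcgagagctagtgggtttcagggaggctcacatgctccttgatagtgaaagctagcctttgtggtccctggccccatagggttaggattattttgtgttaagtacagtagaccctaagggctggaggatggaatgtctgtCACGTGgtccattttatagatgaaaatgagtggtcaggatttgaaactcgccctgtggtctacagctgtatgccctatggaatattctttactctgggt
Ctsl, chr13:64370471-64370770, minus strand: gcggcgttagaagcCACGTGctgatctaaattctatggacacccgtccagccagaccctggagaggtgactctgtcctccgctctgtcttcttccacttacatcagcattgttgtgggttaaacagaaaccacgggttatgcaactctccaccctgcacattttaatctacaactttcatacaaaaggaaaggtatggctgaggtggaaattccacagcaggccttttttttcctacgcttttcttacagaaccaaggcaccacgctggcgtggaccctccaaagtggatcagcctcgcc
Ctsa, chr2:164833523-164833822, plus strand: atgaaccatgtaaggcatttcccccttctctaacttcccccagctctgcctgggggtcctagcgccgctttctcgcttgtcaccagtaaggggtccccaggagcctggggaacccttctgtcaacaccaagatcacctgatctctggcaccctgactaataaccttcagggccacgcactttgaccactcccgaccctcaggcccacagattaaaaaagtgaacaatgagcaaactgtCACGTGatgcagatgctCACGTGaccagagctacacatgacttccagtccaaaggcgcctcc
Counted from the start, with the base before it as -1, the E-box began at -49 in Lgmn, at -236 in Ctsl and at -12 and 6 in Ctsa.

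An E-box was also present in members that did not rise, and the surroundings of the one nearest to the start are shown for comparison, again with each CACGTG in capitals.
Ctsd, chr7:142387900-142387945, minus strand: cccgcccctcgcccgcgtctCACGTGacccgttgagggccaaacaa
Lamp1, chr8:13159126-13159171, plus strand: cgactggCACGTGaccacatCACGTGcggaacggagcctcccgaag
Glb1, chr9:114401010-114401055, plus strand: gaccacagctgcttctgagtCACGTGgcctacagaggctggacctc
Gla, chrX:134601174-134601219, minus strand: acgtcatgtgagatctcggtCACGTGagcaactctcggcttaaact
Mcoln1, chr8:3500454-3500499, plus strand: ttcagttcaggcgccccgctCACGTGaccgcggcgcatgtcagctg
Atp6v0d1, chr8:105566042-105566087, minus strand: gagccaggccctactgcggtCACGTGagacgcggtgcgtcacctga
Atp6v1a, chr16:44139365-44139410, minus strand: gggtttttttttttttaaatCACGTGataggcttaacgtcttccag
Gaa, chr11:119267803-119267848, plus strand: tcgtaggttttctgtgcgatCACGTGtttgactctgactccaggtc
Lamp1 had 4 E-boxes within 61 bases of its start, and Mcoln1, Ctsd and Gla had 2 each. The 11 genes with the motif had a median difference from wild type of 0.48 (from -0.83 to 3.87), and the 17 measured genes whose windows lacked it a median of 0.47 (from -2.66 to 1.58). Of the 4 genes with a window that rose in the fit of 2 groups, 3 held the motif. These letters say nothing of whether a factor binds there.

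**Figure D5:**
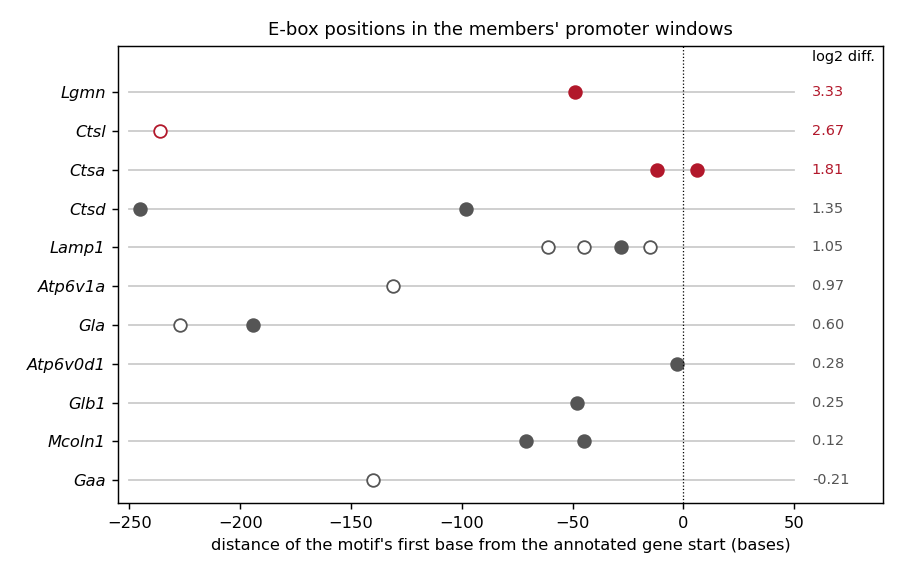
Position of each CACGTG (first base, in bases from the annotated start, dotted line) in the promoter windows of the 11 members that hold one, ordered by the log2 difference of the homozygous lines from both other arrays, given at the right. Filled circles also match GTCACGTG on either strand, and Lgmn, Ctsl and Ctsa (red) passed the limma test in the fit of 2 groups.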

How the data were processed

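Total RNA (8 microgram per sample, per the labels' protocols) was hybridised to 1 Affymetrix array per culture. What the authors deposited is 1 signal intensity for each probe set and array, from MAS5 per the submitters' processing notes. Its scaling target was not given in the sources used here, and detection calls were not used. Of 45101 probe sets, 34958 had 1 gene symbol in the platform annotation, 932 had several and 9211 had none; only the first kind was used, checked by gene ID against RefSeq (0 symbols changed).

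Each array was divided by its median signal over the tested genes (mean signal above 2.55, the 40th percentile), relative to the geometric mean of the 4 medians. A pseudocount of 0.675, the 20th percentile of all deposited signals, was added before log2, so differences of dim genes are understated. limma 3.58.1 in R 4.3.3 (lmFit, contrasts, eBayes with an intensity trend) fitted 1 mean per genotype, with 1 residual and 9.87 total degrees of freedom, and a second fit of 2 groups had 2 and 22.6. P-values were adjusted over all genes tested. Folds against a group at background are given as at least the mean homozygous signal over that background, or the fitted fold where smaller. The first of these fits was tested on simulated data, the second was not. Named genes are all 36 members and, of each other list, those called and up to 4 with the largest difference from wild type; cell type lists are given by counts, with members at background and up to 4 names. The members and lists were chosen with earlier results of these data known. Alternatives covered the pseudocount, scaling, probe sets, filter, trend, grouping and left-out arrays. For arrays no depth applies, and their number limits the precision.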

Additional observations from a re-analysis of the deposited data

How the results depend on the processing

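The direction of the member median was kept in every setting for the comparisons with the homozygous lines: relative to the median gene it lay between 0.40 and 0.86 against wild type (0.66 as reported) and between 0.47 and 0.79 against heterozygous (0.58), the lowest and highest values including those without ko1 or ko2. The count of members called higher depended on the setting. All genes called higher are given in brackets. Against wild type it went from 2 (26) to 0 with probe sets averaged (7), to 0 without the trend (0) and to 3 with quantile normalization (32). Against heterozygous it went from 2 (28) to 1 with the pseudocount divided by 16 (21), to 4 with signals as deposited (96), to 0 with probe sets averaged (7), to 1 with no filter (19) and to 0 without the trend (0). It was 3 there with the pseudocount at the 40th percentile, trimmed mean scaling or quantile normalization (41 each). The fit of 2 groups is a different comparison, since it pools wild type and heterozygous. In that fit the count went from 6 (127) to 3 with signals as deposited (61), to 1 with probe sets averaged (21), to 0 without the trend (0), to 5 with the pseudocount divided by 16 or no filter (113 each) and to 7 with quantile normalization (148). Leaving out 1 array there, an alternative chosen after seeing the data, as was the repeat of the other settings for that fit, gave between 2 without ko1 (25) and 7 without ko2 (104), and 4 without wild type (79) or heterozygous (72). For the comparisons with a single array, leaving out a homozygous line leaves no residual degree of freedom and so no test. No paired analysis was possible because the wild type and heterozygous groups have 1 array each and no numbers shared with ko1 and ko2.

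Signals as deposited shift the median gene to -0.75 against wild type, and uncalled differences from wild type then turned below 0 for Npc1 (-0.36), Glb1 (-0.17), Hexa (-0.22), Man2b1 (-0.48), Neu1 (-0.10), Lipa (-0.18), Ppt1 (-0.01), Mcoln1 (-0.36), Atp6v0d1 (-0.38) and Atp6v1a (-0.11). With probe sets averaged the sign turned against wild type for Npc2 (-0.25), Neu1 (-0.36) and Ppt1 (-0.38), and against heterozygous for Lamp2 (1.09), Npc2 (-0.44), Lipa (0.43), Ppt1 (-0.32) and M6pr (0.03). The fit of 2 groups compares with wild type and heterozygous pooled. Its sign was opposite to that against wild type alone for Ctss (-0.15), Gla (0.60) and Lipa (-0.09), and to that against heterozygous alone for Gaa (-0.21). Mcoln1 against heterozygous moved to 0.00 with trimmed mean scaling and to -0.05 with quantile normalization. Of these 24 reversed values 0 passed the limma test, and the cause was not tested. The number of arrays limits the precision, and 45.8%, 33.9%, 41.3% and 59.9% of tested genes lay at or below background in ko1, ko2, wild type and heterozygous. Fitted differences of members at background, such as Ctss, Lamp2 and Gla above, are not measured sizes.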
